A study of Mus musculus with 21 samples.

Results

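Genes of the DNA replication machinery were examined in tumours grown from Hepa1-6 cells, a mouse hepatoma line. The set was a list of 43 genes that license origins, unwind DNA, copy it, join the copied fragments, repackage them in chromatin or supply nucleotides. Of these, 42 were matched to a named probe set, 1 for each gene, among 19505 named genes on the array. Mcm7, a subunit of the replicative helicase, was not matched and is not analysed here. All 21 mice were female C57BL/6J animals that were injected subcutaneously at 5 to 6 weeks of age and randomized at a tumour volume of 200 mm3. The lenvatinib arm (5 mice) received 10 mg/kg of this inhibitor of the VEGF and FGF receptors daily by gavage. The anti-PD1 arm (5 mice) received 10 mg/kg of antibody J43 against the inhibitory T cell receptor PD-1 every 3 days for 5 doses. The combination arm (5 mice) received both, and the placebo arm (6 mice) received vehicle and polyclonal IgG, which the labels name for that arm alone. Tumours were collected on day 13, and each array measured RNA from a 30 mg piece of 1 tumour. The model is 1 cell line at a site outside the liver.

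Replication starts at origins bound by the origin recognition complex. Cdc6 and Cdt1 load the MCM helicase there during G1, and geminin, the product of Gmnn, holds Cdt1 in check afterwards. In S phase Cdc45 and the GINS complex activate the helicase, primase and the polymerases copy both strands, the clamp PCNA is loaded by replication factor C, and flap endonuclease and ligase finish the lagging strand. Many of these genes are transcribed in late G1 under E2F factors, so their transcripts are widely used as a sign of dividing cells. In bulk tumour RNA, fewer dividing cells and less of these transcripts in each cell cannot be told apart.

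Values are log2 signals, on which a difference of 1 is 2-fold, and levels are not compared between genes. The negative control probe sets had a median signal of 4.08. No replication gene averaged below it in every arm, and Pole2, a subunit of polymerase epsilon, was the 1 gene that did so in any arm. Orc1, of the origin recognition complex, also lay close to it, with arm means of 4.22 to 4.53. The labelled tumour type was checked on its markers: Afp, the fetal liver protein of hepatoma cells, averaged 11.5 ± 0.43 in lenvatinib, 9.70 ± 3.41 in anti-PD1, 10.1 ± 1.31 in combination and 8.94 ± 2.96 in placebo tumours (SD, n = 5, 5, 5 and 6). Alb, the albumin gene, averaged 12.4 in lenvatinib and 10.4 in placebo tumours, and the liver factor Hnf4a averaged 6.61 in lenvatinib and 5.25 in placebo tumours. On 6 arrays the hybridization controls, bacterial RNAs added before hybridization, averaged 10.9 to 11.4, against 9.69 to 10.4 on the other 15. These were lenvatinib mice 1 and 2, anti-PD1 mouse 1, combination mouse 1 and placebo mice 4 and 6, and the interquartile range of their signals was 2.41 to 2.82 against 3.00 to 3.25. Results are therefore also given within and without these 6 arrays where the values moved, but only within them for lenvatinib against anti-PD1.

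The replication genes varied mainly from tumour to tumour, and most did so together. Over the 21 tumours, 773 of the 861 pairs of genes correlated positively, with a median Pearson r of 0.56, and 1 component held 68.8% of their variance. A score, the mean of the 42 genes after each was centred on its own mean over the 21 tumours, was lowest in anti-PD1 mouse 2 at -0.83. It stood at -0.64 in both placebo mouse 1 and placebo mouse 4, at -0.63 in anti-PD1 mouse 1 and at -0.55 in placebo mouse 6. It was highest in lenvatinib mouse 3 at 0.64, anti-PD1 mouse 5 at 0.62 and anti-PD1 mouse 3 at 0.56. The anti-PD1 arm thus held the lowest tumour and 2 of the 3 highest. In anti-PD1 mouse 5 all 42 genes were above their own mean, and in anti-PD1 mouse 2 38 of 42 were below it. Of the 42 genes, 27 had their lowest value in anti-PD1 mouse 1 or 2 (13 and 14), and 12 had their highest in lenvatinib mouse 3.

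**Figure D1:**
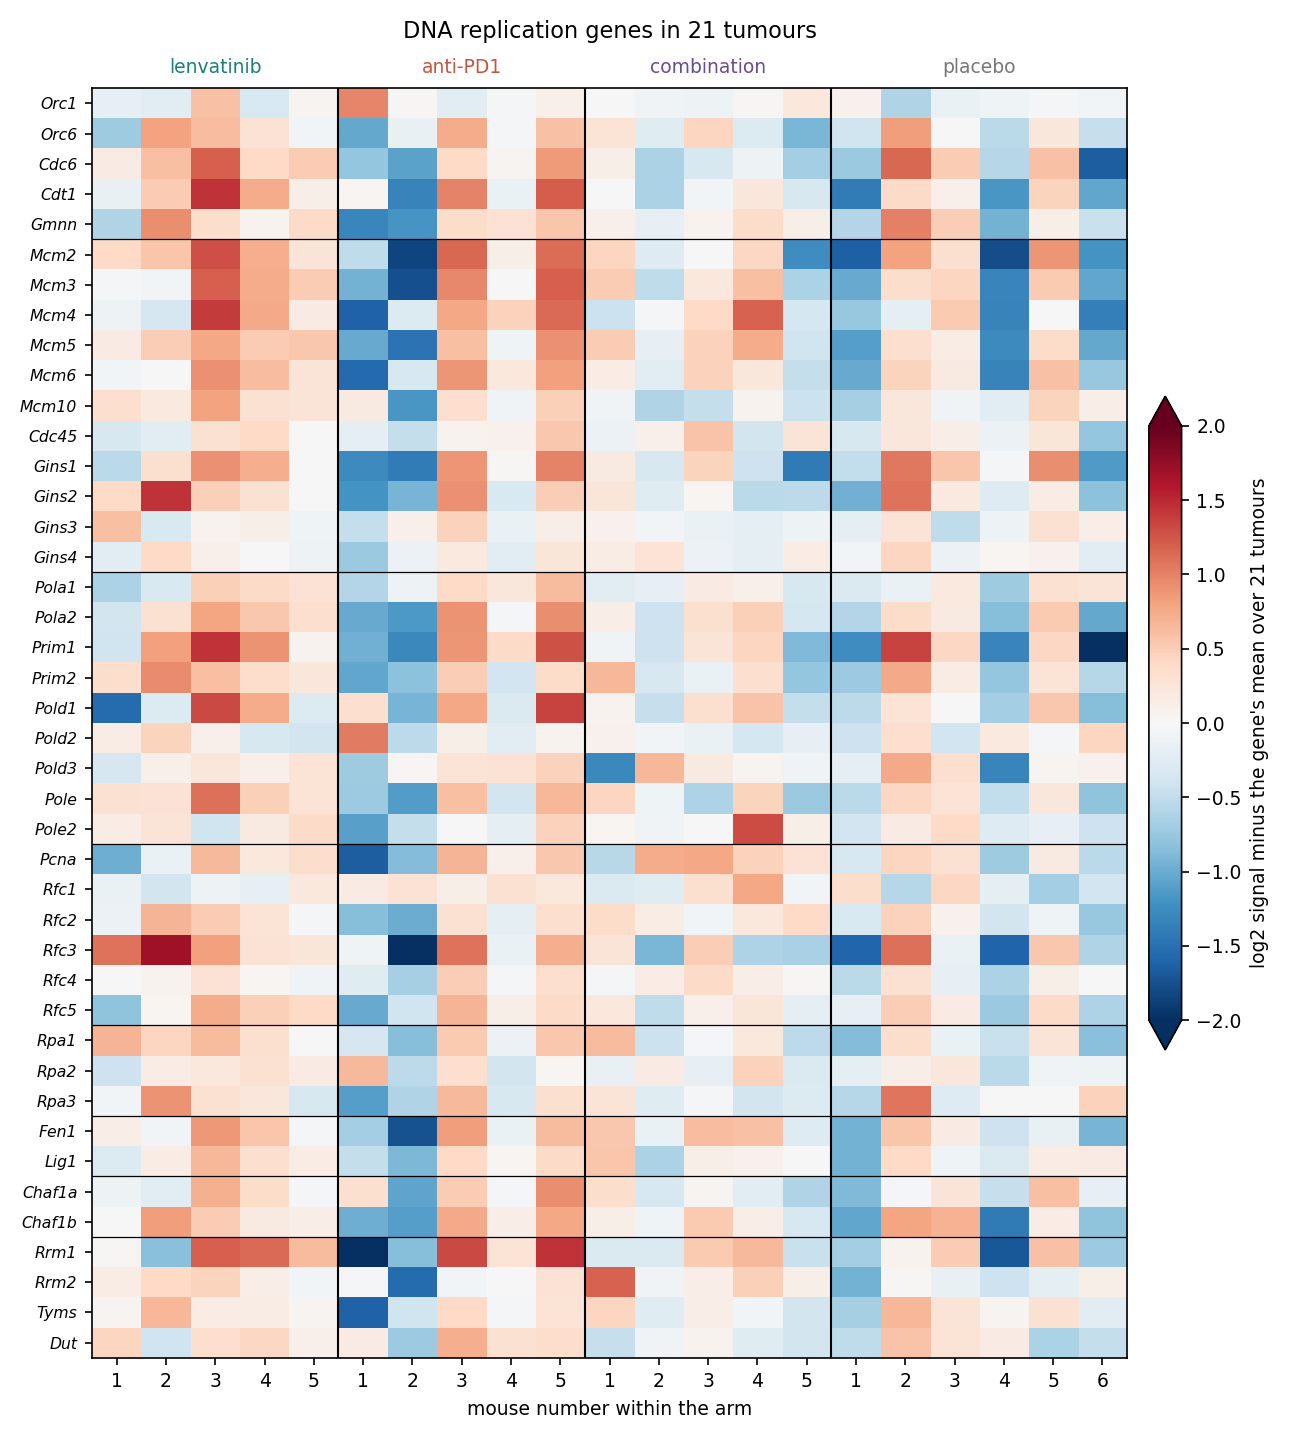
Log2 signal of each of 42 replication genes minus the gene's mean over 21 tumours, by arm and mouse number, with genes grouped by role between the horizontal lines. Anti-PD1 mouse 2 and placebo mice 1 and 4 are blue over most genes, and lenvatinib mouse 3 and anti-PD1 mouse 5 are red.

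Spread within an arm was accordingly uneven. The median SD of a gene within its arm was 0.37 in lenvatinib, 0.74 in anti-PD1, 0.38 in combination and 0.53 in placebo tumours, and 33 of 42 genes had their largest SD in the anti-PD1 arm. Rrm1, the large subunit of ribonucleotide reductase, varied most over the 21 tumours (SD 1.01). Its signal was 6.60, 5.73, 7.77, 7.71 and 7.20 in lenvatinib mice 1 to 5 and 4.03, 5.72, 7.90, 6.85 and 8.03 in anti-PD1 mice 1 to 5. It was 6.28, 6.29, 7.09, 7.22 and 6.13 in combination mice 1 to 5 and lay between 4.88 and 7.16, with a median of 6.28, in placebo mice. Both extremes of Rrm1 were anti-PD1 tumours, and all arms overlapped. Prim1, the catalytic subunit of primase, Mcm2, a helicase subunit, and Rfc3, a clamp loader subunit, each had an SD of 0.99. The least variable were Gins4 (0.26) and Gins3 (0.28), both of the GINS complex, the clamp loader subunit Rfc4 (0.31) and Orc1, the largest subunit of the origin recognition complex (0.32).

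The genes differed in how closely they followed the rest. The median r of a gene with the mean of the other 41 was 0.79 over all 21 tumours and 0.87 over the 15 without bright hybridization controls. Pola2, the accessory subunit of polymerase alpha, stood at 0.97, Mcm3 at 0.96, and Mcm5 and Prim1 at 0.95. At the other end Orc1 stood at -0.30, Rfc1, the large clamp loader subunit, at -0.13, Pold2, a subunit of polymerase delta, at -0.05 and Gins3 at 0.26. Pold2 was the gene that depended most on the arrays, with r = 0.67 over those 15 tumours, whereas Orc1 and Rfc1 stayed below 0 at -0.14 and -0.26. Orc1 averaged 4.36 over the 21 tumours, close to the negative control median of 4.08. The signal of Rfc1 was 7.43, 7.20, 7.47, 7.41 and 7.79 in lenvatinib mice, 7.74, 7.85, 7.69, 7.87 and 7.78 in anti-PD1 mice and 7.28, 7.32, 7.89, 8.35 and 7.52 in combination mice. In placebo mice it lay between 6.89 and 7.98 with a median of 7.29. Anti-PD1 mouse 2, the tumour with the lowest replication score, thus had the second highest Rfc1 signal of its arm. These correlations describe 21 tumours that share 1 normalization, and each r rests on genes measured on the same arrays.

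**Figure D2:**
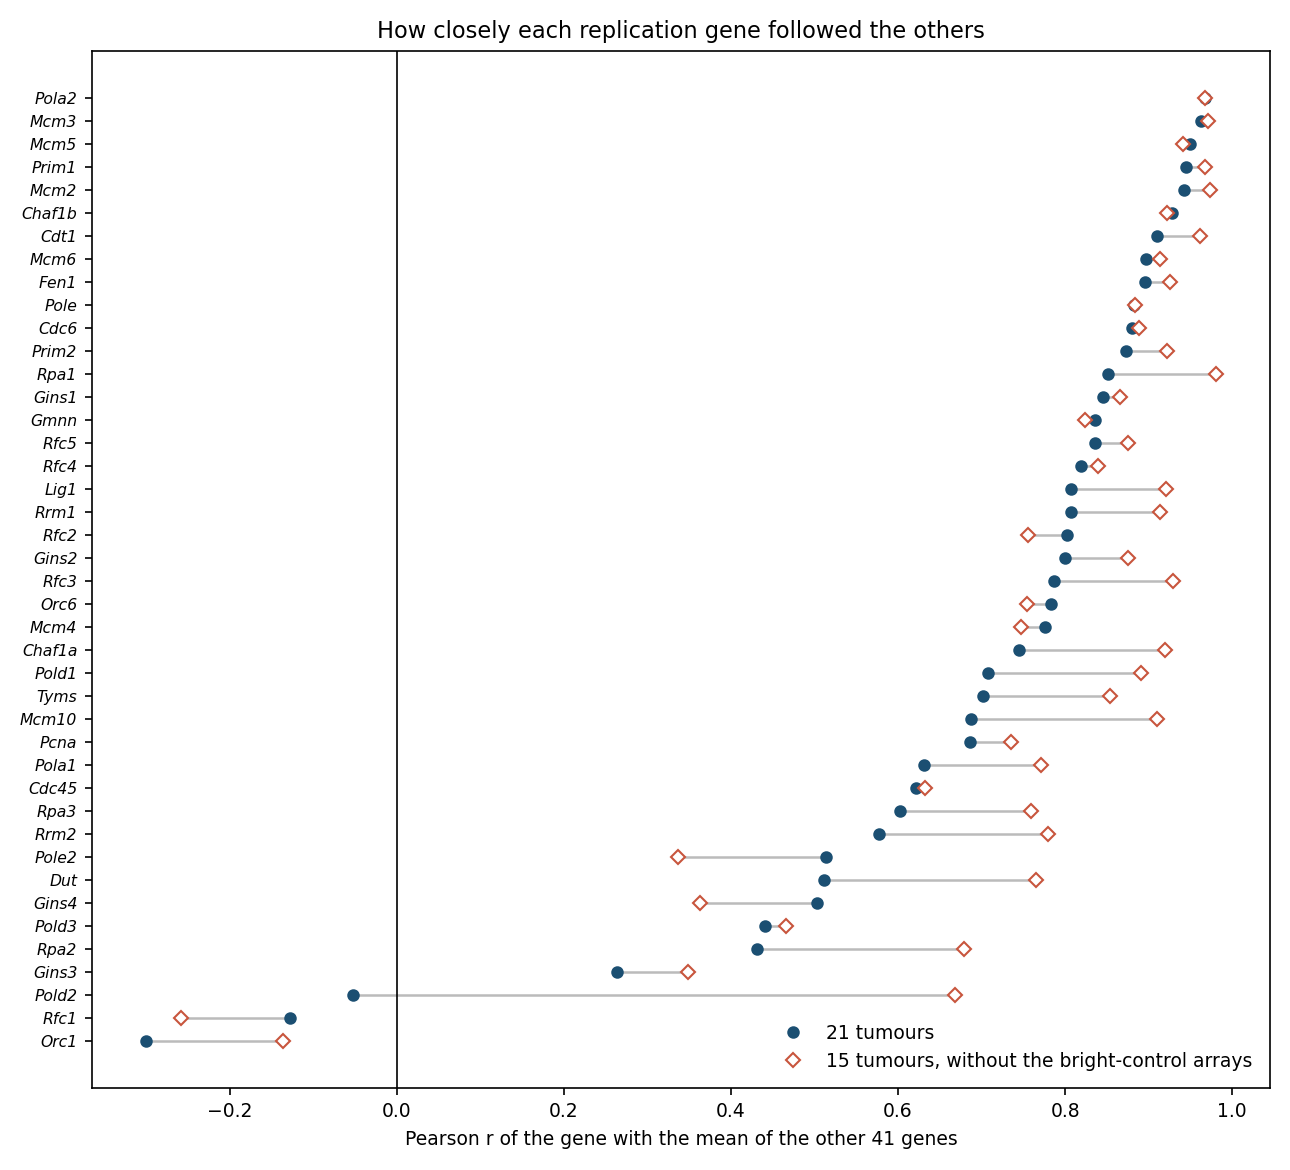
Pearson r of each replication gene with the mean of the other 41 genes over 21 tumours (filled circles) and over the 15 without bright hybridization controls (open diamonds), sorted by the filled circles. Pola2 and Mcm3 lie at the top, Orc1 and Rfc1 lie below 0 on both, and Pold2 moves furthest between the 2 sets of arrays.

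Outside the list, the named genes most like the replication genes were Aurkb, the mitotic kinase of the chromosomal passenger complex (r = 0.98 with the mean of the 42 genes over 21 tumours), Mad2l1 of the spindle checkpoint and Atad2, a chromatin ATPase (both 0.97), Dlgap5, a spindle protein (0.97), and Smc2 of condensin (0.97). The search covered 18499 genes. The same tumours stood at the ends for mitosis: a score of 19 mitosis genes was -1.64 in anti-PD1 mouse 2, -1.59 in placebo mouse 1 and -1.40 in placebo mouse 4, the 3 lowest, and 1.37 in anti-PD1 mouse 5 and 1.14 in lenvatinib mouse 3, the 2 highest. Adipocyte markers were high in most tumours with few replication transcripts. The score of 10 matched adipocyte markers was 3.26 in anti-PD1 mouse 2, 2.63 in placebo mouse 1, 2.33 in placebo mouse 4, 2.32 in anti-PD1 mouse 1 and 1.91 in placebo mouse 6, all within the 6 highest of the 21. Anti-PD1 mouse 4 had 2.09 with a replication score of -0.01. Combination mouse 5, with a replication score of -0.33, had an adipocyte score of -0.87. The hepatoma markers were lowest in anti-PD1 mouse 2 (-1.64), placebo mouse 1 (-1.41), placebo mouse 6 (-1.32) and combination mouse 5 (-1.16). The part of fat or tumour cell content in the replication values was not tested.

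**Figure D3:**
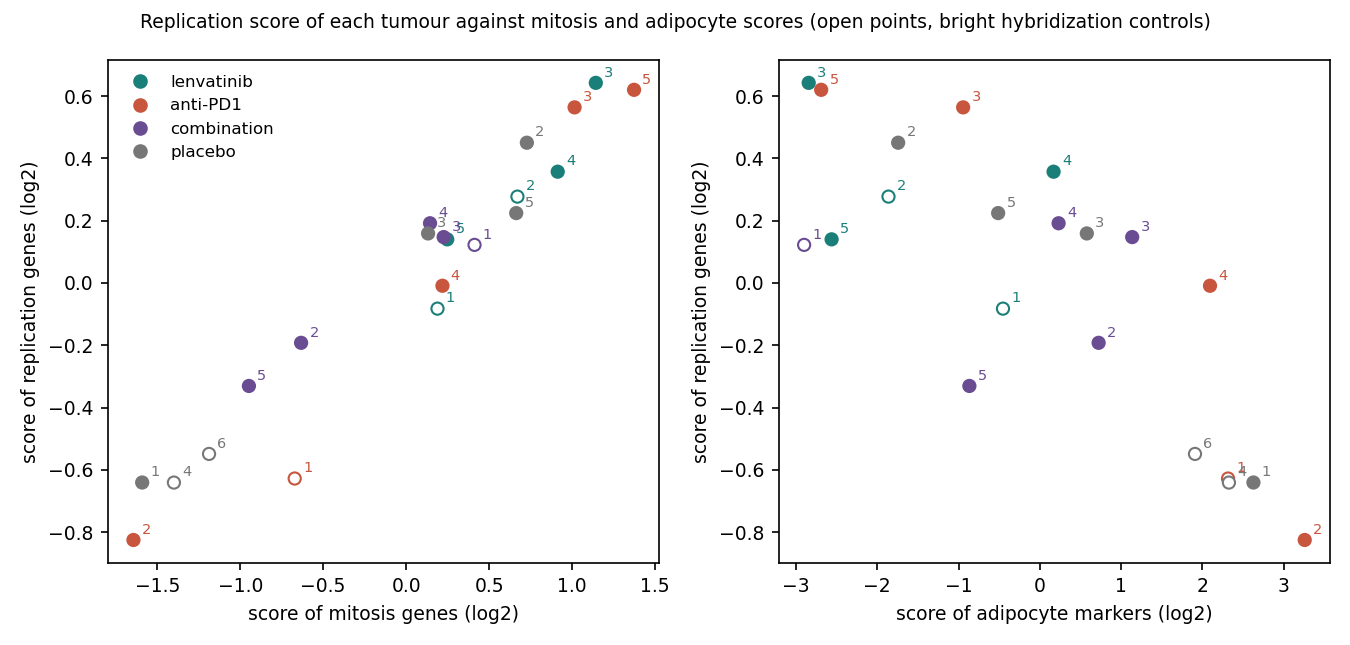
Replication score of each of 21 tumours (log2, vertical axes) against its mitosis score (left) and its adipocyte score (right), numbered by mouse, with open points for the 6 arrays with bright hybridization controls. Anti-PD1 mouse 2 has the lowest replication and mitosis scores and the highest adipocyte score.

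The promoters of genes at both ends of this order are shown, to set their letters beside how closely each gene followed the rest. Promoter windows of 250 bases before to 50 after the annotated start, from RefSeq on GRCm38.p6, were found for 35 of the 43 genes (40 windows). The E2F site was searched as TTTCCCGC, TTTCGCGC, TTTGCCGC or TTTGGCGC on both strands, and was present in 14 of 40 windows (35.0%). It was present in 2.26% of 32851 windows of all genes and in 2.85% of 21263 windows of protein-coding genes. A CCAAT box (CCAAT) was present in 57.5%, against 37.4% of all and 38.2% of protein-coding windows. For a CHR element (TTTGAA) the shares were 12.5%, 17.9% and 16.0%, and for a GC box (GGGCGG) 72.5%, 35.7% and 46.2%. The E2F letters were present in 6 of 15 genes with an r above 0.8 and in 7 of 19 at or below it. The 160 bases before the start are given 5′ to 3′ on the gene's strand, with E2F matches in capitals, for the 3 genes with the highest r and the 3 with the lowest among those with 1 window. Those that followed the others were Pola2 (chr19:5964207-5964366, minus strand), Mcm3 (chr1:20820313-20820472, minus) and Mcm5 (chr8:75109349-75109508, plus). Those that did not were Gins3 (chr8:95633399-95633558, plus), Rfc1 (chr5:65335640-65335799, minus) and Orc1 (chr4:108579294-108579453, plus). Of these, Orc1 had a signal close to the negative controls. The choice of these 6 was made with the matches known.
Pola2: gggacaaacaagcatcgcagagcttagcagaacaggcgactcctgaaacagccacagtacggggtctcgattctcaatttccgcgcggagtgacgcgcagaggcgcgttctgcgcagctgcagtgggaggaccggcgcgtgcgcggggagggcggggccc
Mcm3: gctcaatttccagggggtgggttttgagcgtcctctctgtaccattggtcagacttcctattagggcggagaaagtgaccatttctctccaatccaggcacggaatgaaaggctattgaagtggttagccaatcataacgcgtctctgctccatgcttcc
Mcm5: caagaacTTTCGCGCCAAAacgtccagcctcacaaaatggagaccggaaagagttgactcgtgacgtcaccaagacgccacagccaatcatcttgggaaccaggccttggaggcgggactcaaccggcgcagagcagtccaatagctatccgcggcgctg
Gins3: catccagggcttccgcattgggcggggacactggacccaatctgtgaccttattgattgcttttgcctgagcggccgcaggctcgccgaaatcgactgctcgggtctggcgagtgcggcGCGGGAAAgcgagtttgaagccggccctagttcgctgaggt
Rfc1: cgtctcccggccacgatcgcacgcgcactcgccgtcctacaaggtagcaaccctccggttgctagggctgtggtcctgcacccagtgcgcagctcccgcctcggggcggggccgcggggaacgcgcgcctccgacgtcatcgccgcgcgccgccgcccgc
Orc1: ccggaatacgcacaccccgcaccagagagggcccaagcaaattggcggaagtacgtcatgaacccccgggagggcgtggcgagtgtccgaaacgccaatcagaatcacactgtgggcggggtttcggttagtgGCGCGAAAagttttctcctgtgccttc
In Mcm5 a pair of matches on opposite strands overlap in 1 run of 12 bases. Mcm3 has 0 matches in this stretch and 2 after the start, Pola2 and Rfc1 have 0 in the whole window, and Gins3 and Orc1 hold 1 each, so matches were present and absent at both ends. A match is a description of these letters and says nothing of whether a factor binds there.

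In lenvatinib tumours nearly all replication genes stood above their placebo mean, but no gene passed the test. The median difference of the 42 genes was 0.30, against -0.01 over all 22206 probe sets, and 41 of 42 lay above 0, against 49.1% of all probe sets. After Benjamini-Hochberg adjustment in limma, 0 replication genes passed (0% of all probe sets did), with an adjusted p of 0.693 for the smallest. At an unadjusted p under 0.05, 4 of 42 were higher and 0 lower, against 2.92% and 4.05% of all probe sets. Without overlap, 0 of 42 separated the arms, against 0.288% of all probe sets with lenvatinib higher and 0.302% lower. For 19 of 42 genes, all 5 lenvatinib tumours lay above the placebo mean. The arm mean was highest in lenvatinib for 30 genes and lowest in placebo for 20. The shares of all probe sets for these last counts were not computed, and the replication genes mostly varied together. The 95% interval lay within 2-fold in either direction for 21 of 42 genes, and reached beyond 2-fold for the others.

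The licensing genes stood at a median difference of 0.29, with 5 of 5 above 0. Cdt1, the helicase loading factor, had signals of 6.17, 6.84, 7.77, 7.07 and 6.45 in lenvatinib mice, against 4.92 to 6.78 with a median of 5.85 in placebo mice. The 5 lenvatinib tumours lay above the placebo mean of 5.88 but overlapped with placebo mice 2, 3 and 5. The difference was 0.98 ± 0.42 (standard error, 95% interval 0.10 to 1.86, limma adjusted p = 0.693). All 11 MCM and helicase genes were above 0, with a median of 0.63. Mcm5 had 6.81, 7.14, 7.42, 7.15 and 7.19 in lenvatinib mice, against 5.37 to 7.01 with a median of 6.22 in placebo mice. The lenvatinib values were tight, while placebo mice 1, 4 and 6 lay at 5.37 to 5.62 and placebo mice 2, 3 and 5 at 6.81 to 7.01, for a difference of 0.92 ± 0.40 (95% interval 0.09 to 1.75). Mcm2 showed the same arrangement at 8.07, 8.22, 8.96, 8.39 and 7.92 in lenvatinib mice, against 5.89 to 8.55 with a median of 7.23 in placebo mice, a difference of 1.08 ± 0.55 (95% interval -0.05 to 2.22).

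Of the polymerase and primase genes 8 of 9 were above 0, with a median of 0.22. Prim2, the large primase subunit, had 6.86, 7.46, 7.11, 6.86 and 6.74 in lenvatinib mice, against 5.74 to 7.28 with a median of 6.30 in placebo mice. The lenvatinib values all lay above the placebo mean and inside the placebo range apart from mouse 2, and the difference was 0.64 ± 0.32 (95% interval -0.04 to 1.32). Rfc3 gave the largest difference of the 42 genes. Its signals were 7.51, 8.12, 7.24, 6.72 and 6.66 in lenvatinib mice, against 4.82 to 7.52 with a median of 6.05 in placebo mice, a difference of 1.21 ± 0.52 or 2.31-fold (95% interval 0.13 to 2.29 on the log2 scale). The 2 brightest of these were lenvatinib mice 1 and 2, both on arrays with bright hybridization controls. The other clamp and clamp loader genes lay between Rfc1 at 0.07 and Rfc2 at 0.42, and the median of all 6 was 0.23. Rpa1, the large subunit of the single-strand binding protein, had the smallest p of the 42 genes. It stood at 8.64, 8.37, 8.58, 8.26 and 7.94 in lenvatinib mice, against 7.09 to 8.31 with a median of 7.66 in placebo mice, a difference of 0.69 ± 0.28 (95% interval 0.10 to 1.28). Lenvatinib mice 1, 2 and 3 lay above every placebo mouse. Rpa2 and Rpa3, its partner subunits, stood at 0.17 and 0.09. The medians were 0.44 for Fen1 and Lig1 of fragment joining, 0.43 for Chaf1a and Chaf1b of chromatin assembly and 0.38 for the 4 nucleotide supply genes, all of them above 0.

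**Figure D4:**
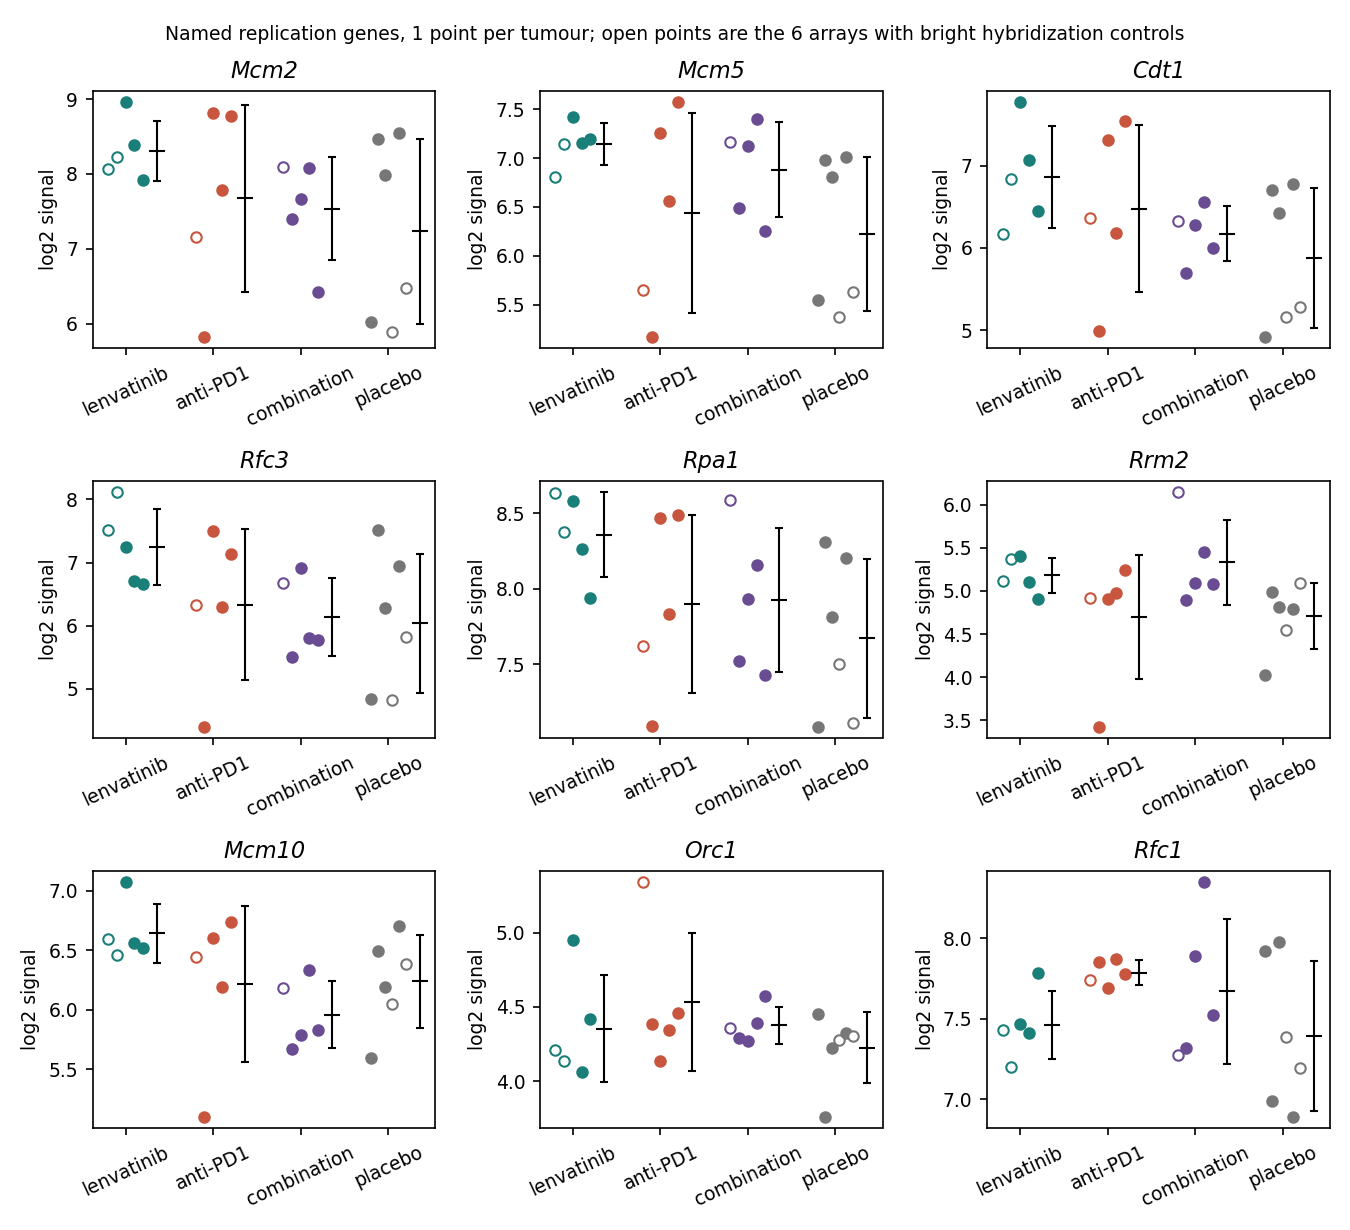
Log2 signal of 9 replication genes, 1 point per tumour, with the arm mean and SD as a bar and open points for the 6 arrays with bright hybridization controls. The lenvatinib values of Mcm2 and Mcm5 are tight, while placebo mice 1, 4 and 6 lie well below placebo mice 2, 3 and 5.

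Without the 6 arrays with bright controls the median difference was 0.33, with 38 of 42 genes above 0 and 0 at an unadjusted p under 0.05; within those 6 arrays (2 lenvatinib, 2 placebo) it was 0.52, with 15 genes higher at that level (7.32% of all probe sets in the same fit) and 2 past the adjusted threshold (3.74% of all probe sets), Rfc3 at 2.49 (adjusted p = 0.0192) and Mcm2 at 1.97 (adjusted p = 0.0235). With array weights, a fit that gives noisier arrays less weight, the median was 0.39 and 12 of 42 were higher at an unadjusted p under 0.05, against 7.65% of all probe sets in that fit. Marker lists of other cells also stood away from 0. Adipocyte markers were below 0 for 10 of 10 matched genes, with scores from -2.84 to 0.17 in lenvatinib and -1.74 to 2.63 in placebo tumours, and skeletal muscle markers for 15 of 15, with scores from -1.74 to 3.60 in lenvatinib and -1.42 to 3.94 in placebo tumours. Hepatoma markers were above 0 for 14 of 14, with scores from 0.42 to 0.90 in lenvatinib and -1.41 to 0.95 in placebo tumours. Some immune and stromal lists lay below 0 too: T cell markers for 11 of 11, with scores from -0.73 to 0.63 in lenvatinib and -0.25 to 0.68 in placebo tumours, macrophage markers for 9 of 9 (-0.91 to 0.78 in lenvatinib and -0.12 to 1.01 in placebo) and fibroblast markers for 9 of 9 (-0.86 to 0.43 in lenvatinib and -0.72 to 0.82 in placebo). Others were mixed, with B cell markers above 0 for 5 of 9 and endothelial markers for 3 of 9. None of these marker genes passed the adjusted threshold in limma. With the muscle and adipocyte scores as covariates the median was -0.0004, 20 of 42 replication genes lay above 0 and 0 had an unadjusted p under 0.05. In that fit Rfc3 stood at 0.40 and Mcm2 at 0.16. Whether these tissues have a part in the difference was not tested further.

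Other cell cycle genes in the lenvatinib and placebo tumours stood mostly above 0 as well, with none past the adjusted threshold. For the counts below, 2.92% of all probe sets were higher at an unadjusted p under 0.05 in limma. Of 35 other replication genes 26 were above 0 (median 0.19) and 3 were higher at an unadjusted p under 0.05, among them Dscc1, an alternative clamp loader subunit, at 0.55 ± 0.24, and Dbf4, the activator of the kinase that fires origins, at 0.64 ± 0.29. Of 21 further nucleotide supply genes 18 were above 0 (median 0.17) and 0 reached that level. Of 24 G1/S regulators 18 were above 0 (median 0.58) and 5 were higher at that level, including the E2F repressor E2f7 at 0.58 ± 0.24 and the pocket protein Rbl1 at 0.74 ± 0.32. Of 20 checkpoint and fork repair genes 19 were above 0 (median 0.36) and 3 were higher at that level. Fancd2 of the Fanconi pathway stood at 0.84 ± 0.34 and the checkpoint clamp gene Hus1 at 0.86 ± 0.36. The mitosis genes stood highest, with 19 of 19 above 0, a median of 0.99 and 6 higher at that level. Among 7 CDK inhibitors, Cdkn2c, an inhibitor of the cyclin D kinases, averaged 5.70 ± 0.39 in lenvatinib and 7.16 ± 0.99 in placebo tumours (SD, n = 5 and 6), a difference of -1.46 ± 0.46 (limma adjusted p = 0.693), and 4 of the 7 were above 0.

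**Figure D5:**
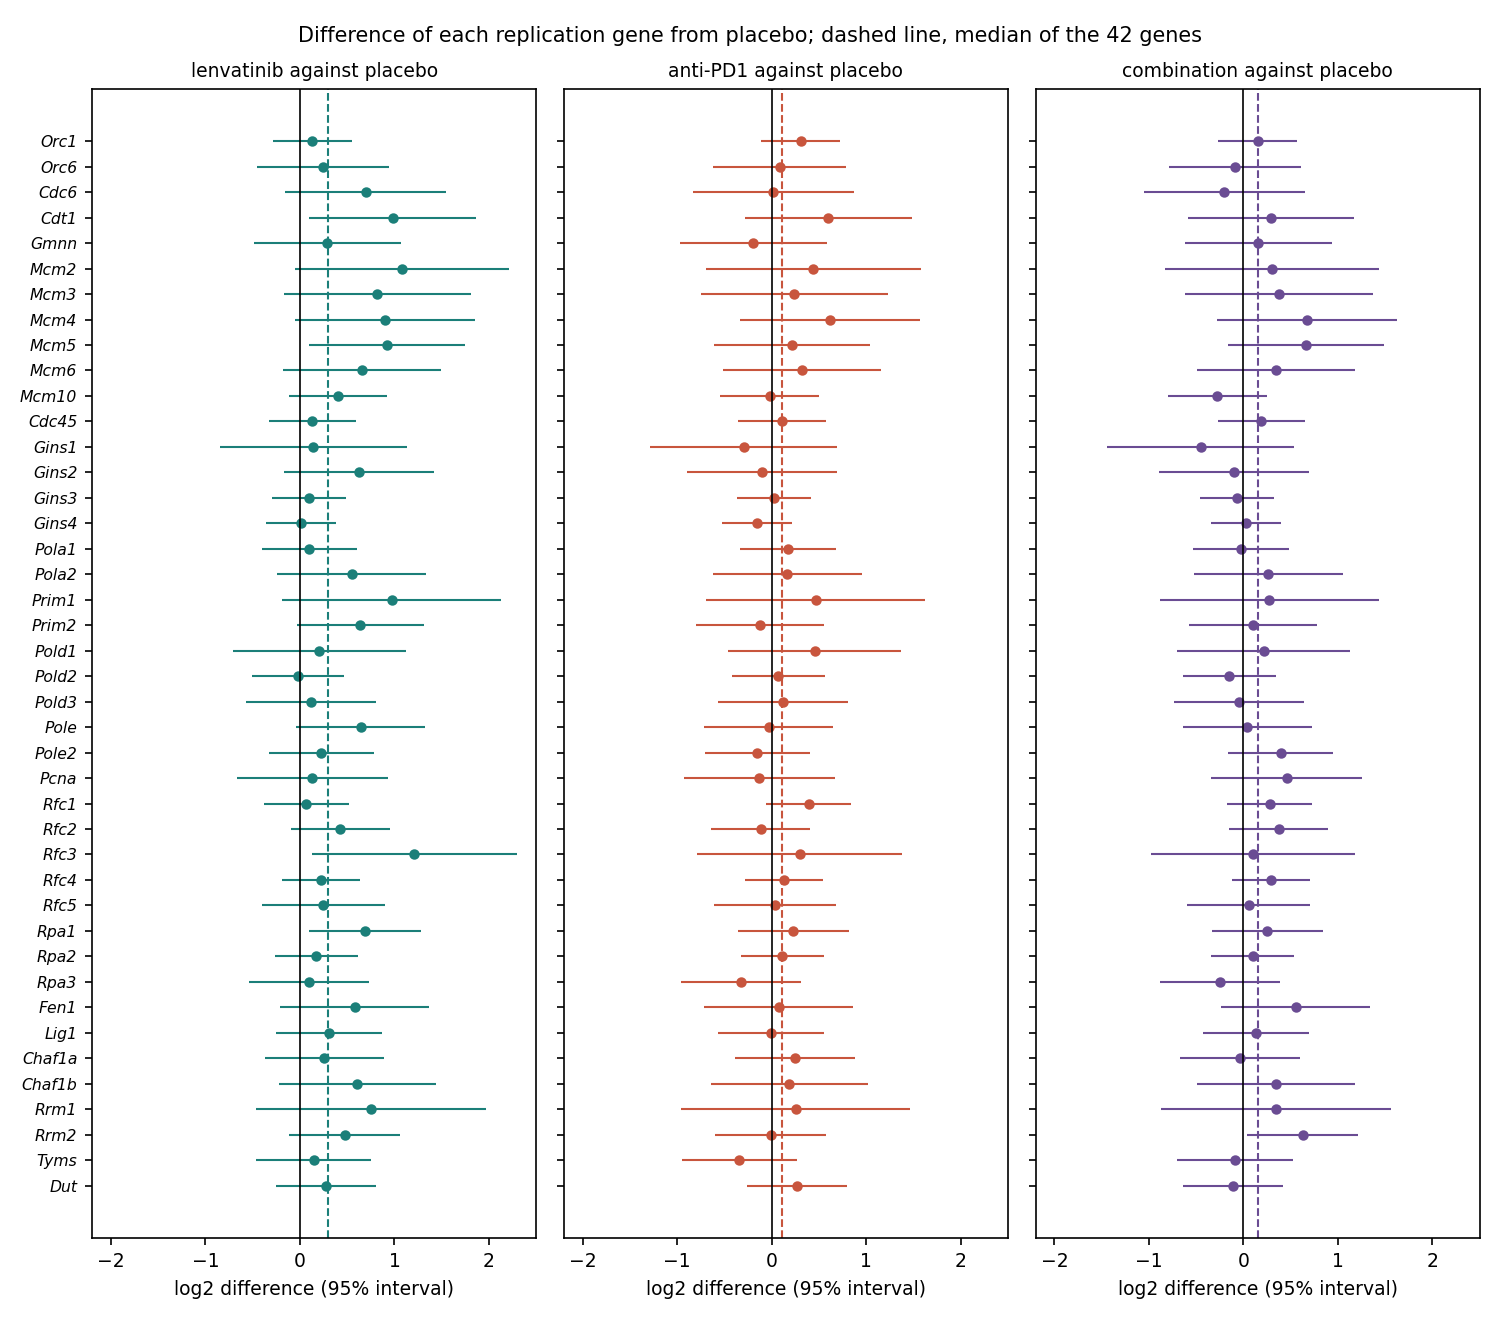
Log2 difference from placebo with its 95% interval for each of 42 replication genes in the lenvatinib, anti-PD1 and combination arms, with a dashed line at the median of the 42 genes. The medians are 0.30, 0.11 and 0.15, and most intervals span 0.

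Anti-PD1 tumours, compared with placebo, had a median difference of 0.11 over the 42 replication genes, with 28 above 0 against 49.6% of all probe sets. In limma 0 replication genes passed the adjusted threshold (0% of all probe sets), and 0 were higher or lower at an unadjusted p under 0.05, against 1.38% and 2.68% of all probe sets. Values separated the arms without overlap, with anti-PD1 higher, for 0 of 42 genes and 0.0901% of all probe sets. Rfc1 had the smallest p: its signals in anti-PD1 mice, given above, averaged 7.79 ± 0.08 against 7.40 ± 0.46 in placebo mice (SD, n = 5 and 6), a difference of 0.39 ± 0.22 (limma adjusted p = 1). All 5 anti-PD1 values lay inside the placebo range. Mcm4 stood at 0.62 ± 0.46 and Cdt1 at 0.60 ± 0.42, while Tyms, thymidylate synthase, stood at -0.34 ± 0.29 and Rpa3 at -0.33 ± 0.31. Orc1 stood at 0.31 ± 0.20, with 5.34 in anti-PD1 mouse 1 and 4.13 to 4.46 in the other 4, against 3.76 to 4.45 in placebo mice. The arm median turned on single tumours: it was 0.26 without anti-PD1 mouse 2, -0.05 without mouse 3 and -0.06 without mouse 5. It was 0.01 without the 6 arrays with bright controls and -0.04 within them (1 anti-PD1 and 2 placebo tumours). With array weights it was 0.27 with 42 of 42 genes above 0. T cell markers lay below 0 for 11 of 11, with scores from -1.89 to -0.10 in anti-PD1 and -0.25 to 0.68 in placebo tumours, macrophage markers for 9 of 9 (-1.52 to 0.43 in anti-PD1 and -0.12 to 1.01 in placebo) and skeletal muscle markers for 15 of 15 (-1.79 to 3.22 in anti-PD1 and -1.42 to 3.94 in placebo). Hepatoma markers lay above 0 for 12 of 14 (-1.64 to 1.02 in anti-PD1 and -1.41 to 0.95 in placebo) and endothelial markers for 9 of 9. The part of these cells in the replication values was not tested.

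Around them, mitosis genes were above 0 for 19 of 19 (median 0.46) and other replication genes for 17 of 35 (median close to 0), and 0 genes of either list had an unadjusted p under 0.05. E2f1, an activator of replication genes, averaged 5.47 ± 0.55 in anti-PD1 and 6.04 ± 0.53 in placebo tumours, a difference of -0.57 ± 0.27. Rad54l, a helper of recombination at broken forks, stood at 0.47 ± 0.20 and Dctd, which supplies dUMP for thymidylate, at -0.69 ± 0.31. All of these had a limma adjusted p of 1.

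Combination tumours, compared with placebo, had a median difference of 0.15, with 29 of 42 above 0 against 49.3% of all probe sets. In limma 0 genes passed the adjusted threshold (0% of all probe sets), and 1 was higher and 0 lower at an unadjusted p under 0.05, against 1.01% and 1.3% of all probe sets. The 1 gene was Rrm2, the S phase subunit of ribonucleotide reductase. Its signals were 6.14, 4.90, 5.10, 5.45 and 5.08 in combination mice, against 4.03 to 5.09 with a median of 4.80 in placebo mice, a difference of 0.63 ± 0.28 (limma adjusted p = 1). The 5 combination values lay above the placebo mean, and mouse 1, the highest, was on an array with bright controls; without mouse 1 the difference was 0.42. Mcm4 stood at 0.68 ± 0.46, Mcm5 at 0.66 ± 0.40, Fen1, the flap endonuclease, at 0.55 ± 0.38, Pole2 at 0.39 ± 0.27 and Rfc2 at 0.37 ± 0.25. For 8 of 42 genes all 5 combination tumours lay above the placebo mean, a count whose share over all probe sets was not computed. Without overlap, 0 of 42 separated the arms, against 0.0766% of all probe sets with combination higher. The median was -0.08 without the 6 with bright controls, with 13 of 42 above 0, and 0.79 within them (1 combination and 2 placebo tumours). With array weights it was 0.03, with 24 of 42 above 0. B cell markers lay above 0 for 9 of 9, with scores from -0.32 to 3.61 in combination and -0.63 to 0.20 in placebo tumours, and T cell markers for 11 of 11 (-0.39 to 1.89 in combination and -0.25 to 0.68 in placebo). Adipocyte markers lay below 0 for 10 of 10 (-2.90 to 1.14 in combination and -1.74 to 2.63 in placebo) and skeletal muscle markers for 15 of 15 (-1.77 to 4.66 in combination and -1.42 to 3.94 in placebo). Hepatoma markers were mixed, above 0 for 8 of 14 (-1.16 to 0.83 in combination and -1.41 to 0.95 in placebo). With the muscle and adipocyte scores as covariates, 16 of 42 replication genes were above 0.

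Among the surrounding lists, 25 of 35 other replication genes were above 0 (median 0.14), with Clspn, the checkpoint adaptor claspin, at 0.38 ± 0.18, and mitosis genes had a median of 0.23. Cdkn2c averaged 6.05 ± 0.46 in combination and 7.16 ± 0.99 in placebo tumours (SD, n = 5 and 6), a difference of -1.11 ± 0.46, and Cad, the first enzyme of pyrimidine synthesis, stood at -0.57 ± 0.26. Both had an adjusted p of 1. The comparisons with placebo share the placebo tumours, so they are not separate readings.

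Combination tumours stood below lenvatinib tumours in 33 of 42 genes, with a median difference of -0.25, and above them in 9, where 48.8% of all probe sets lay above 0. In limma 0 passed the adjusted threshold (0% of all probe sets). Lower at an unadjusted p under 0.05 were 2 genes, against 2.53% of all probe sets, and 0 were higher, against 3.87%. The same 2 genes separated the arms without overlap, which 0.482% of all probe sets did in that direction. Mcm10, which helps to start the fork, had 6.18, 5.67, 5.78, 6.33 and 5.83 in combination mice, against 6.60, 6.46, 7.07, 6.56 and 6.52 in lenvatinib mice. The highest combination tumour lay below the lowest lenvatinib tumour, and the difference was -0.68 ± 0.26 (limma adjusted p = 0.78). With array weights it was -0.82 with a limma adjusted p of 0.041, and 3.18% of all probe sets passed in that fit. Cdc6, the licensing ATPase, had 5.64, 4.89, 5.21, 5.43 and 4.85 in combination mice, against 5.69, 6.13, 6.72, 5.92 and 6.04 in lenvatinib mice. The gap between the arms was 5.64 against 5.69, and the difference was -0.90 ± 0.43 (95% interval -1.79 to -0.0043). Rfc3 stood at -1.11 ± 0.54 (95% interval -2.24 to 0.02), with 6.68, 5.51, 6.92, 5.80 and 5.77 in combination mice. Over the 42 genes, array weights gave a median of -0.45 with 16 lower at an unadjusted p under 0.05, against 10.6% of all probe sets in that fit. The median was -0.46 without the 6 arrays with bright controls, with 4 lower at that level against 6.82% of all probe sets, and 0.04 within them. Without lenvatinib mouse 3 neither Mcm10 nor Cdc6 had an unadjusted p under 0.05. Within the bright arrays (combination mouse 1 against lenvatinib mice 1 and 2) 22 of 42 replication genes were above 0. Hepatoma markers lay below 0 for 14 of 14, with scores from -1.16 to 0.83 in combination and 0.42 to 0.90 in lenvatinib tumours. T cell markers lay above 0 for 11 of 11 (-0.39 to 1.89 in combination and -0.73 to 0.63 in lenvatinib), B cell markers for 9 of 9 (-0.32 to 3.61 in combination and -0.85 to 0.40 in lenvatinib), macrophage markers for 9 of 9 (-0.64 to 1.39 in combination and -0.91 to 0.78 in lenvatinib) and adipocyte markers for 10 of 10 (-2.90 to 1.14 in combination and -2.84 to 0.17 in lenvatinib). With the muscle and adipocyte scores as covariates 19 of 42 replication genes were above 0, and the part of the other cells was not tested.

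Combination tumours, compared with anti-PD1 tumours, stood at a median of 0.02 and 24 of 42 genes above 0, against 48.1% of all probe sets. In limma 0 passed the adjusted threshold (0% of all probe sets) and Rrm2 alone was higher at an unadjusted p under 0.05 (0.64 ± 0.29), against 4.85% of all probe sets, while 0 were lower, against 2.79%. Anti-PD1 mice had Rrm2 signals of 4.92, 3.43, 4.91, 4.98 and 5.25, with mouse 2 far below the others. Pole2 at 0.54 ± 0.28 and Rfc2 at 0.49 ± 0.26 followed. The median was -0.20 without the 6 arrays with bright controls and 1.07 within them (1 tumour of each arm). With array weights it was -0.35 with 7 of 42 above 0 and 3 lower at an unadjusted p under 0.05, against 7.76% of all probe sets in that fit, and with the muscle and adipocyte scores as covariates it was -0.20. It lay below 0 without anti-PD1 mouse 1 or 2 or combination mouse 1, 3 or 4, reaching -0.13. T cell markers lay above 0 for 11 of 11, with scores from -0.39 to 1.89 in combination and -1.89 to -0.10 in anti-PD1 tumours, as did B cell markers for 9 of 9 (-0.32 to 3.61 in combination and -0.90 to -0.03 in anti-PD1) and macrophage markers for 9 of 9 (-0.64 to 1.39 in combination and -1.52 to 0.43 in anti-PD1). Adipocyte markers lay below 0 for 10 of 10 (-2.90 to 1.14 in combination and -2.69 to 3.26 in anti-PD1). Hepatoma markers did so for 11 of 14 (-1.16 to 0.83 in combination and -1.64 to 1.02 in anti-PD1) and endothelial markers for 8 of 9. The part of these cells was not tested.

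Lenvatinib tumours, compared with anti-PD1 tumours, had a median difference of 0.38 and 36 of 42 genes above 0, against 51.5% of all probe sets. Again 0 passed the adjusted threshold in limma (0% of all probe sets), and 1 was higher at an unadjusted p under 0.05, against 1.55% of all probe sets, while 0 were lower, against 3.04%. This was Prim2, at the lenvatinib values above against 5.48, 5.70, 7.0, 6.13 and 6.89 in anti-PD1 mice, a difference of 0.77 ± 0.34 (95% interval 0.06 to 1.47). Lenvatinib values overlapped with anti-PD1 mice 3 and 5. Pole, the leading strand polymerase, stood at 0.67 ± 0.34 and Rfc2 at 0.54 ± 0.26. The median was 0.16 without anti-PD1 mouse 1 and also without mouse 2, the 2 tumours with the lowest scores of that arm. It was 0.94 within the 6 arrays with bright controls (2 lenvatinib and 1 anti-PD1 tumours), -0.12 with the muscle and adipocyte scores as covariates and 0.10 with array weights. Adipocyte markers lay below 0 for 10 of 10, with scores from -2.84 to 0.17 in lenvatinib and -2.69 to 3.26 in anti-PD1 tumours. So did endothelial markers for 9 of 9 (-0.93 to 0.23 in lenvatinib and -0.34 to 1.75 in anti-PD1) and fibroblast markers for 8 of 9. Hepatoma markers lay above 0 for 13 of 14, with scores from 0.42 to 0.90 in lenvatinib and -1.64 to 1.02 in anti-PD1 tumours. T cell markers did so for 11 of 11, macrophage markers for 9 of 9 and skeletal muscle markers for 13 of 15. The part of these cells in the replication values was not tested.

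The interaction asked whether the 2 agents added up on the log2 scale, as the difference between combination and anti-PD1 tumours minus that between lenvatinib and placebo tumours. It was below 0 for 35 of 42 replication genes and above 0 for 7, with 48.9% of all probe sets above 0, and had a median of -0.36, and 0 passed the adjusted threshold in limma (0% of all probe sets). Cdt1 was the 1 gene lower at an unadjusted p under 0.05, against 3.31% of all probe sets. It stood at -1.29 ± 0.61 (limma adjusted p = 0.547), with arm means of 6.17 ± 0.33 in combination, 6.48 ± 1.01 in anti-PD1, 6.86 ± 0.62 in lenvatinib and 5.88 ± 0.85 in placebo tumours (SD, n = 5, 5, 5 and 6). Rfc3 stood at -1.41 ± 0.75 and Mcm10 at -0.66 ± 0.36. The median was 0.13 within the 6 arrays with bright controls and -0.55 without them. With array weights it was -0.77, with 1 of 42 above 0 and 20 lower at an unadjusted p under 0.05, against 12.4% of all probe sets in that fit, and the smallest limma adjusted p was 0.0501. The same interaction was above 0 for 11 of 11 T cell and 9 of 9 macrophage markers (medians 2.35 and 2.10) and below 0 for 14 of 14 hepatoma markers (median -1.38), and their part in the replication values was not tested. Pcna, the clamp itself, stood at 0.45 ± 0.55, with arm means of 9.43 ± 0.54 in combination, 8.84 ± 0.99 in anti-PD1, 9.11 ± 0.62 in lenvatinib and 8.97 ± 0.48 in placebo tumours.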

How the data were processed

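RNA of 21 tumours was measured on Clariom S mouse arrays, 1 per mouse. The authors deposited log2 signals that, per the submitters' processing notes, come from RMA and oligo. Version numbers and a genome build: not given in the sources used here. RMA normalizes the arrays to each other, which can hide a shift common to most probe sets. The deposited signals still did not share 1 distribution. Their interquartile range was 2.41 to 2.82 on the 6 arrays with bright hybridization controls and 3.00 to 3.25 on the other 15. Of 29129 rows, 6923 controls were left out and 22206 probe sets tested, of which 19572 had 1 gene symbol in the platform's annotation. The probe set with the highest mean stood for a gene.

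limma 3.58.1 (R 4.3.3) was fitted on 4 arm means over all arrays, with 7 contrasts, Benjamini-Hochberg adjustment over all probe sets and a threshold of 0.05, two-sided. It was also run on simulated data with shifts added to randomly chosen probe sets. Those shifts were larger than the median differences of the replication genes in the main fit. That run therefore cannot tell whether such differences would be detected. The number of arrays limits the precision. Members, lists and tests were chosen with earlier results of these data known. Named were the genes with the smallest p in each contrast (6 against placebo, 3 otherwise), the 4 most and least variable, the 4 closest to and furthest from the others, 1 or more of each role, and the 1 or 2 with the smallest p from each related list. Pcna, Rpa2, Afp, Alb, Hnf4a and other genes outside the rule were named after their values were seen. Mouse numbers were taken as names only, so the main fit did not pair the arms. Correlations of same-numbered mice ran from -0.63 to 0.56, and 15 of 30 exceeded 0.1. Mice with different numbers were not compared, so these values cannot settle whether the numbers pair the arms. Alternatives are described in the closing section.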

Additional observations from a re-analysis of the deposited data

Results flagged for a closer look

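Of 112 groups of 5 or 6 values, those of 27 named replication genes and of the replication score in each of 4 arms, 7 held a tumour far from the others by Dixon's test; chance gives about 1 in 20. Lenvatinib mouse 3 was high for Mcm10 at 7.07, against 6.46 to 6.60 in the other lenvatinib mice, and for Pole at 7.092, against 6.27 to 6.47. Lenvatinib mouse 2 was high for Tyms at 8.27, against 7.65 to 7.75. Anti-PD1 mouse 1 was high for Orc1 at 5.34, against 4.13 to 4.46, on an array with bright hybridization controls, and anti-PD1 mouse 2 was low for Rrm2 at 3.43, against 4.91 to 5.25. Combination mouse 4 was high for Pole2 at 5.586, against 4.21 to 4.40. Placebo mouse 2 was low for Orc1 at 3.761, against 4.23 to 4.45, although its replication score of 0.45 was the highest of the placebo arm. That Orc1 signal was below the negative control median of 4.08.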

How the results depend on the processing

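In every comparison the count of replication genes past the adjusted threshold stayed at 0 under a filter on dim probe sets, trend and robust eBayes, cyclic loess, fits of only the arms compared, the hybridization control covariate, the muscle and adipocyte covariates, a threshold of 0.1 and leaving out each mouse. The exceptions were 2 genes in lenvatinib against placebo within the 6 arrays with bright controls, an alternative added after seeing the data, and 1 gene (Mcm10) in combination against lenvatinib with array weights. Within those 6 arrays the median difference was 0.79 for combination against placebo, 1.07 for combination against anti-PD1, 0.94 for lenvatinib against anti-PD1 and 0.13 for the interaction. With the muscle and adipocyte covariates it was -0.0004 for lenvatinib against placebo and -0.12 for lenvatinib against anti-PD1. The cause was not tested. Of the named genes, Mcm4 in anti-PD1 against placebo turned to -0.26 within the 6 arrays, and Rpa3 and Tyms turned to 0.12 and 0.0055 with array weights.

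Leaving out each mouse moved the median of lenvatinib against placebo from 0.21 (placebo mouse 1) to 0.49 (lenvatinib mouse 1), of anti-PD1 against placebo from -0.06 to 0.26, of combination against placebo from 0.05 to 0.27, of combination against lenvatinib from -0.35 to -0.16, of combination against anti-PD1 from -0.13 to 0.21, of lenvatinib against anti-PD1 from 0.16 to 0.56 and of the interaction from -0.51 to -0.20. The 4 genes higher with lenvatinib at an unadjusted p under 0.05 became 0 without placebo mouse 1, 1 without placebo mouse 4, placebo mouse 6 or lenvatinib mouse 3, and 2 without lenvatinib mouse 1. They became 6 without placebo mouse 5, 7 without placebo mouse 3 and 11 without placebo mouse 2. The count was 12 with array weights, 9 with only both arms in the fit and 7 with cyclic loess. For the refits of this paragraph, the share of all probe sets was computed for array weights alone. It was 7.65%, against 2.92% in the main fit, so the other counts have no share to be read against. With the mouse number as a replicate block the medians were 0.28, 0.07 and 0.08 for lenvatinib, anti-PD1 and combination against placebo, with 0, 0 and 1 genes higher at that level, and no adjusted call changed. The mean over all probe sets of a gene was not run as an alternative, since each gene had 1.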

Other observations

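Anti-PD1 mouse 1 held the lowest value of 13 of the 42 genes, among them Pcna at 7.44, Gmnn at 3.42 and Pole2 at 3.19. The same tumour held the highest value of 3 others: Pold2 at 9.16, Orc1 at 5.34 and Rpa2, the middle subunit of the single-strand binding protein, at 7.38. Its array had bright hybridization controls, and the part of the array in these values was not tested. Pold1, the catalytic subunit of polymerase delta, was lowest in lenvatinib mouse 1 at 5.07 and highest in anti-PD1 mouse 5 at 7.95. Gins1 was lowest in combination mouse 5 at 4.16 and highest in placebo mouse 2 at 6.62, while Gins2 was highest in lenvatinib mouse 2 at 8.53. Pold3, an accessory subunit of polymerase delta, ran from 5.03 in placebo mouse 4 to 7.10 in placebo mouse 2. Cdc45 ran from 4.17 in placebo mouse 6 to 5.50 in combination mouse 3, where Pcna was also highest at 9.86. Dut, which clears dUTP, had its lowest signal, 4.57, in anti-PD1 mouse 2 and its highest, 6.03, in mouse 3 of that arm.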
